A study of Mus musculus with 6 samples.

Results

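The P2X receptors are the 7 genes P2rx1 to P2rx7, chosen by symbol from the 22869 gene symbols of the deposited count table. Each encodes a subunit of a trimeric channel that opens to cations when ATP binds outside the cell. P2X3 subunits, alone or with P2X2, are best known from sensory neurons, above all from those that sense painful stimuli, where they carry fast responses to ATP released from tissue. P2X4 and P2X7 are also known from microglia and other immune cells, P2X1 from smooth muscle and platelets, and P2X5 from developing skeletal muscle. P2X6 subunits form few functional channels alone and assemble with P2X2 or P2X4.

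RNA was sequenced from 6 libraries of E14.5 mouse embryos, in 2 groups of 3, all of mixed strain. The mechanoreceptor libraries, numbered 2, 8 and 9 in the labels, were sorted by fluorescence from dissociated dorsal root ganglia of Ret-CreERT2; Rosa26-Tdtomato embryos, in which tamoxifen switches on a red reporter in cells that express Ret. Their mothers received 4-hydroxytamoxifen (1.5 and 2 mg, the dose behind each library not stated) by gavage. The labels call these cells Ret+ RA mechanoreceptors, neurons of light touch whose central axons run in the spinal dorsal columns. The midline libraries, numbered 2, 3 and 5, were laser-captured from the dorsal column of frozen, hematoxylin-stained wild-type spinal cords with no tamoxifen stated, and are labelled as midline cells that derive from the roof plate. Cell type, tissue, isolation method, genotype and tamoxifen therefore cannot be told apart. No label ties a replicate to its own embryo or litter, so p-values measure only the spread between these libraries, which may be technical.

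Total counts were 12031898 to 13801474 in the mechanoreceptor and 5599811 to 8081153 in the midline libraries. Ret was at 988, 1036 and 788 CPM (counts scaled to library size) in the mechanoreceptor libraries and at 13.6, 41.9 and 20.8 CPM in the midline libraries, so the groups did not overlap. Pan-sensory markers were called higher in mechanoreceptors for 8 of 9 tested, and mechanoreceptor and proprioceptor markers for 8 of 11, against 18.8% of all genes. Another of these 11, Ntrk2, was called higher in the midline (79.3 to 115 against 224 to 529 CPM, log2 fold change -1.90, adjusted p = 0.00397, named after its values were seen). Mafa, an early marker of Ret-expressing mechanoreceptors, was at no more than 0.238 CPM in the mechanoreceptor libraries. The called markers Shox2, Pvalb and Prrxl1 (named after their values were seen) were at no more than 1.12 CPM in the midline. The filter on low counts, described below, has its level at 1.40 CPM. These genes passed it through the mechanoreceptors alone and had to differ. Ret was the gene by which the cells were labelled for sorting. The counts of 8 of 9 and 8 of 11 thus cannot be weighed against 18.8%. All 9 roof plate markers tested were called higher in the midline, against 18.9% of all genes. The list summed to only 2.49 to 9.69 CPM in mechanoreceptors. Markers under the filter's level in all those libraries passed it through the midline alone and had to differ. The roof plate count thus cannot be weighed against 18.9%. Skeletal muscle markers summed to 14591, 169 and 1452 CPM in midline libraries 2, 3 and 5, against 8.42 to 12.7 CPM in the mechanoreceptor libraries. Keratinocyte markers summed to 643, 24.1 and 31.7 CPM in the same midline libraries.

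P2rx3 was the one P2X gene that was far higher in mechanoreceptors, and P2rx5, P2rx6 and P2rx7 were each higher in the midline. P2rx2 and P2rx4 overlapped between the groups, and P2rx1 was near the floor of the counts in both. Of the 7 genes, 6 passed the filter on low counts and entered edgeR's quasi-likelihood test, in which a gene is called at an adjusted p under 0.05 (Benjamini-Hochberg over 15314 genes). Of these 6, 4 were called, against 37.8% of all genes tested. P2rx5, 1 of the 4, passed the filter through the midline alone and so had to differ, and of the other 5 genes 3 were called. P2rx3 was the 1 called higher in mechanoreceptors (18.8% of all genes tested) and 3 were called higher in the midline (18.9%). The same 4 genes were those whose CPM did not overlap between the groups, against 54.8% of all genes tested (27.3% with mechanoreceptors higher and 27.5% with the midline higher). P2rx5 had to differ here too, and of the other 5 genes tested 3 did not overlap, which is near that share. The median log2 fold change of the 6 tested genes was -0.997, against -0.05 over all genes tested. This median includes P2rx5, which had to differ, and lies between P2rx7 (-2.07) and P2rx4 (0.08). No shift of the family is read from it. Log2 fold changes are mechanoreceptor minus midline throughout, and below 0 the midline is the higher group. In such bulk libraries fewer cells of a type and less RNA per cell cannot be told apart.

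**Figure D1:**
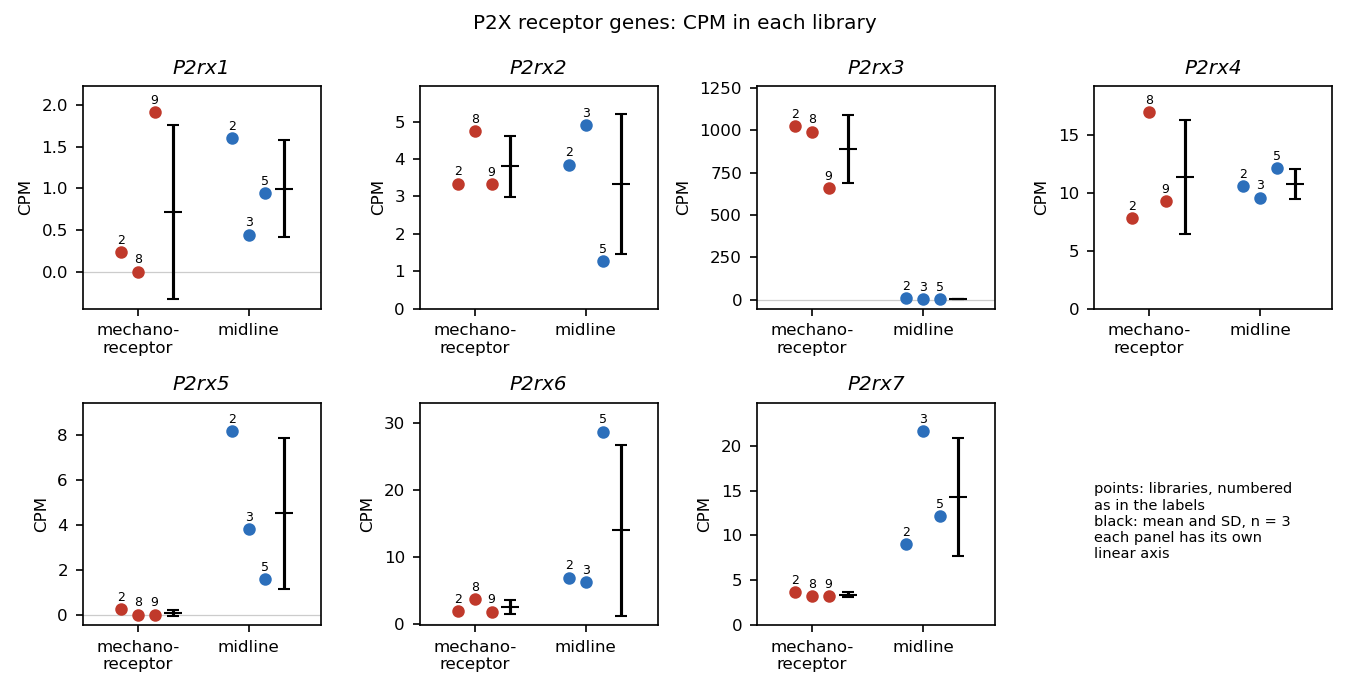
CPM of each P2X gene in the 3 mechanoreceptor (red) and 3 midline (blue) libraries on linear axes that differ between panels, with the mean and SD of each group in black. P2rx3 stood at 658 to 1022 CPM in mechanoreceptors and at 2.23 to 6.26 CPM in the midline, while P2rx5, P2rx6 and P2rx7 were higher in every midline library than in any mechanoreceptor library.

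P2rx3 encodes the subunit that marks ATP-sensing sensory neurons. It was at 1022, 991 and 658 CPM in mechanoreceptor libraries 2, 8 and 9 and at 6.26, 2.23 and 2.37 CPM in midline libraries 2, 3 and 5. Every mechanoreceptor library was thus more than 100 times above every midline library, although library 9 was the lowest of its group. The means were 890 ± 202 CPM and 3.62 ± 2.29 CPM (SD, n = 3 each). The fold change was 241 with a 95% interval of 108 to 537 (log2 fold change 7.91, SE 0.50, adjusted p = 0.000155, edgeR's quasi-likelihood test). Among all genes tested it was rank 4 by log2 fold change toward mechanoreceptors and rank 22 by p. The fold rose to 389 without midline library 2, which held 39 of the 64 P2rx3 counts of the midline. The deposited counts show 22351 P2rx3 reads over the mechanoreceptor libraries, and P2rx3 was called in all 14 alternative analyses, with adjusted p from 2.08e-77 to 0.00173. In the authors' deposited table the log2 fold change of P2rx3, midline minus mechanoreceptor, is -8.10 with a false discovery rate of 1.06e-51.

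On a scale that allows genes to be compared, P2rx3 in mechanoreceptors was at 491 ± 111 CPM per kilobase of transcript (SD, n = 3). This level ranked 92 among 22233 genes with a known transcript length, so 99.6% of them were lower. In the midline P2rx3 was at 2.00 ± 1.26 CPM per kilobase, and 41.5% of genes were lower there. The midline counts of 39, 10 and 15 were all over the floor of 3 counts, which is worth 0.346 to 0.669 CPM at these depths. P2rx3 overlaps Prg3 in the RefSeq annotation of GRCm38.p6, and Prg3 was at no more than 2.53 CPM in any library. Ssrp1 lies 12 bases from P2rx3. It was at 92.7 to 132 CPM in mechanoreceptors and at 135 to 201 CPM in the midline, highest in midline library 2.

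P2X3 is best known from nociceptors, so markers of these neurons were read beside it. Nociceptor markers summed to 251, 343 and 409 CPM in mechanoreceptor libraries 2, 8 and 9 and to 40.8 to 77.8 CPM in the midline. Of 10 such markers tested, 5 were called higher in mechanoreceptors and none higher in the midline, against 18.8% and 18.9% of all genes tested. Prdm12 (69.9 to 149 CPM) and Scn10a (74.5 to 107 CPM) led these calls in mechanoreceptors. Mrgprd was at 0 counts in all mechanoreceptor libraries and Trpv1 at no more than 3.58 CPM. The library with the highest nociceptor sum, mechanoreceptor 9, had the lowest P2rx3. The part of nociceptors in the P2rx3 level was not tested.

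P2rx2 encodes the subunit with which P2X3 forms the heteromeric receptor of sensory neurons. It was at 3.34, 4.75 and 3.32 CPM in the mechanoreceptor libraries and at 3.85, 4.91 and 1.26 CPM in midline libraries 2, 3 and 5. The groups overlapped, and midline library 5 was the lowest of all. The log2 fold change was 0.20 (SE 0.59, adjusted p = 0.811, edgeR's quasi-likelihood test), and its 95% interval of -1.15 to 1.55 spans folds from 0.450 to 2.93. The sign turned to -0.018 with upper-quartile scaling and to -0.16 without midline library 5, so no direction is given. The gene had 3 transcript rows, with log2 fold changes of 0.17 to 0.20 and adjusted p of 0.809 to 0.839.

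P2rx3 and P2rx2 thus stood far apart in the sorted neurons. Per kilobase, P2rx3 was 354, 241 and 229 times the level of P2rx2 in mechanoreceptor libraries 2, 8 and 9. In midline libraries 2, 3 and 5 the same ratio was 1.88, 0.526 and 2.17. Summed over the 7 genes per kilobase, P2rx3 made up 98.9%, 98.1% and 98.1% of the P2X signal in the mechanoreceptor libraries and 19.1%, 7.73% and 5.90% in the midline libraries. The shares did not overlap between the groups, and an exact two-sided permutation test gave p = 0.1, the smallest that 3 libraries against 3 can give. As plain counts the P2rx3 share ran from 97.1% (Wilson 95% interval 96.6 to 97.5) to 98.3% (98.1 to 98.6) in mechanoreceptors. In the midline it ran from 4.00% (2.44 to 6.49) to 13.5% (10.03 to 17.9). These intervals, like the floor, cover counting error only.

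**Figure D2:**
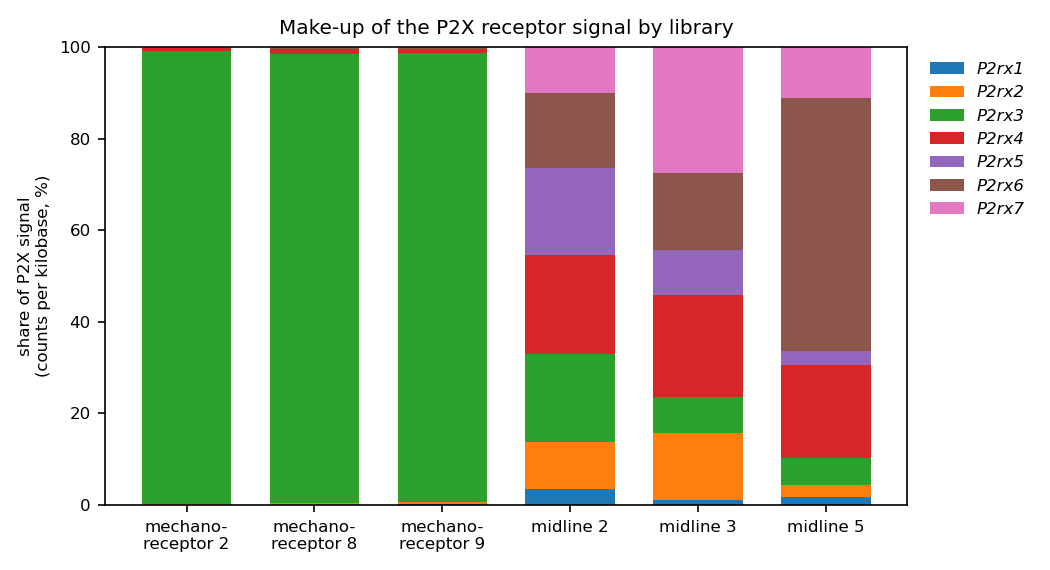
Share of the summed P2X signal (counts per kilobase of transcript, in percent) held by each P2X gene, with 1 bar per library. P2rx3 filled 98.1% to 98.9% of the bar in the mechanoreceptor libraries, while in the midline libraries several genes shared the signal and P2rx6 held 55.3% in library 5.

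The order of the levels per kilobase also differed between the groups. In mechanoreceptors the order was P2rx3, P2rx4 (4.21 ± 1.82), P2rx2 (1.82 ± 0.39), P2rx6 (1.04 ± 0.46), P2rx7 (0.681 ± 0.057), P2rx1 (0.288 ± 0.421) and P2rx5 (0.032 ± 0.056 CPM per kilobase, SD, n = 3). The first 5 had ranges over the libraries that were separate from one another, while P2rx7 overlapped with P2rx1, and P2rx1 with P2rx5. P2rx6 (from 0.762 CPM per kilobase) also overlapped with P2rx1 (up to 0.771). In the midline the order was P2rx6 (5.95 ± 5.46), P2rx4 (3.99 ± 0.48), P2rx7 (2.89 ± 1.33), P2rx3, P2rx5 (1.89 ± 1.40), P2rx2 (1.59 ± 0.89) and P2rx1 (0.402 ± 0.234 CPM per kilobase). Every pair of neighbours in the midline order overlapped in range, although P2rx2 was above P2rx1 in every midline library. Genes farther apart could be separate, as P2rx4 (3.55 to 4.50) and P2rx3 (1.23 to 3.45 CPM per kilobase) were.

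P2rx4 encodes a subunit found in many cell types, including neurons and activated microglia. It was at 7.84, 16.99 and 9.32 CPM in mechanoreceptor libraries 2, 8 and 9 and at 10.6, 9.59 and 12.2 CPM in midline libraries 2, 3 and 5. The groups overlapped, with mechanoreceptor libraries both lowest and highest. The log2 fold change was 0.08 (SE 0.39, adjusted p = 0.890, edgeR's quasi-likelihood test), with a 95% interval of -0.81 to 0.97 that spans folds of 0.569 to 1.96. Its sign turned in 4 analyses, to -0.13 with upper-quartile scaling, -0.014 with limma-voom, -0.076 with a filter of at least 50 counts in 3 libraries and -0.31 without mechanoreceptor library 8. Adjusted p ran from 0.481 to 0.994 over 14 alternatives. P2rx4 overlaps Camkk2, a kinase gene, in the RefSeq annotation of GRCm38.p6, and Camkk2 was higher in mechanoreceptors (54.1 to 77.3 CPM) than in the midline (18.9 to 33.5 CPM). The strand of the counting was not given in the sources used here, so reads of the genes in their overlap cannot be told apart.

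P2rx7 encodes the subunit that opens at high ATP and is known from macrophages, microglia and other glia. It was at 3.69, 3.21 and 3.19 CPM in the mechanoreceptor libraries and at 8.98, 21.6 and 12.2 CPM in midline libraries 2, 3 and 5. The mechanoreceptor libraries lay close together and all below the midline, where library 3 was highest. P2rx7 was 4.21-fold higher in the midline, with a 95% interval of 2.09 to 8.44 (log2 fold change -2.07, SE 0.44, adjusted p = 0.00848, edgeR's quasi-likelihood test). It was called in 13 of 14 alternatives and missed the threshold on the deposited log2 values (log2 fold change -1.41, adjusted p = 0.0557 with limma), where the range over all alternatives was 6.47e-05 to 0.0557. The 13 include the filter of at least 50 counts in 3 libraries, which P2rx7 passed through the midline alone. Its counts were 32, 27 and 25 in mechanoreceptors and 56, 97 and 77 in the midline, so that call adds nothing. In the authors' deposited table P2rx7 differs by 1.70 on the log2 scale, midline minus mechanoreceptor, with a false discovery rate of 0.00757.

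P2rx7 had 4 transcript rows, all higher in the midline by their log2 fold change. The row with most counts gave the value above, and the rows of 2576, 712 and 1605 bases gave log2 fold changes of -1.59 (adjusted p = 0.0474), -2.85 (0.0224) and -1.33 (0.0934) when all transcript rows entered a single edgeR quasi-likelihood test, in which 19.2% of rows were called higher in the midline. The shortest of these rests on 6, 1 and 2 counts in the mechanoreceptor libraries. Reads in shared exons can stand in several rows, so the rows are not independent.

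Macrophage and microglia markers, read beside P2rx7 and P2rx4, summed to 96.3 to 328 CPM in mechanoreceptors and 257 to 405 CPM in the midline. Of the 12 tested, 2 were called higher in the midline, Itgam (adjusted p = 0.00710) and Ptprc (0.0389), both named after their values were seen, and 10 were not called. A share of 18.9% of all genes tested was called higher in the midline, so 2 of 12 is near the background. The most abundant, Csf1r, C1qb and Tyrobp, were not called. Mechanoreceptor library 8 had the lowest sum, and P2rx7 there (3.21 CPM) was within the range of the other mechanoreceptor libraries. The part of these cells in the P2rx7 level was not tested.

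P2rx6 encodes a subunit that is known mainly as a partner in heteromeric channels. It was at 1.85, 3.68 and 1.79 CPM in the mechanoreceptor libraries and at 6.90, 6.25 and 28.7 CPM in midline libraries 2, 3 and 5. All midline libraries were above all mechanoreceptor libraries, and midline library 5 held 182 of the 253 midline counts. P2rx6 was 5.71-fold higher in the midline, with a 95% interval of 1.87 to 17.4 (log2 fold change -2.51, SE 0.70, adjusted p = 0.0244, edgeR's quasi-likelihood test). The call rested on single libraries. Without midline library 5 the log2 fold change was -1.39 (adjusted p = 0.118), and the call was also lost without mechanoreceptor library 2 (-2.33, adjusted p = 0.0913) and without mechanoreceptor library 9 (-2.32, adjusted p = 0.0865). It was lost with limma on the deposited log2 values too (-1.52, adjusted p = 0.138). The call held in 9 of 13 alternatives, with adjusted p from 0.00123 to 0.138, and the direction held in all 13. The authors' deposited table gives P2rx6 a log2 fold change of 2.28, midline minus mechanoreceptor, and a false discovery rate of 0.00439. P2rx6 lies 3 bases from Slc7a4, an amino acid transporter family gene, in RefSeq. Slc7a4 was at 10.98 to 20.3 CPM in mechanoreceptors and 6.58 to 13.6 CPM in the midline and was not called (adjusted p = 0.307).

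P2rx5 encodes a subunit whose channels pass ATP-evoked currents in developing muscle and other tissues. It had 2, 0 and 0 counts in mechanoreceptor libraries 2, 8 and 9 and 51, 17 and 10 counts in midline libraries 2, 3 and 5. In CPM these are 0.231, 0 and 0 against 8.18, 3.79 and 1.58, so all mechanoreceptor libraries were under the floor of 3 counts and all midline libraries over it. Scaled to depth, the ratio of summed counts was 57.0, midline over mechanoreceptor, with an exact 95% interval of 15.3 to 479 that covers counting error only and not the spread between libraries. It was 31.1 (7.81 to 270) without midline library 2, 60.5 without library 3 and 79.1 without library 5. The fitted log2 fold change was -5.54 (SE 1.14, adjusted p = 0.00779, edgeR's quasi-likelihood test), and it depends on the prior count. It was -4.77 without midline library 2 and -7.91 without mechanoreceptor library 2, which held both mechanoreceptor counts. P2rx5 was called in 13 of 13 alternatives (adjusted p 0.000129 to 0.0338). It reached the filter's level in 0 of 3 mechanoreceptor and 3 of 3 midline libraries, so its call adds nothing to the counts themselves. The authors' deposited table gives P2rx5 a log2 fold change of 4.23, midline minus mechanoreceptor, and a false discovery rate of 3.95e-05.

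P2rx1 encodes the fast desensitising subunit of smooth muscle and platelets. It had 2, 0 and 15 counts in the mechanoreceptor libraries and 10, 2 and 6 counts in the midline libraries, or 0.231, 0 and 1.92 CPM against 1.60, 0.446 and 0.947 CPM. The groups overlapped, and 15 of the 17 mechanoreceptor counts were in library 9. It did not pass the filter, having reached the filter's level in 1 library of each group. The ratio of summed counts scaled to depth was 1.55, midline over mechanoreceptor (exact 95% interval 0.752 to 3.20, for counting error only, which leaves out the spread between libraries), and no difference was detectable at this depth. Smooth muscle and pericyte markers summed to 17.5 to 27.2 CPM in mechanoreceptors and 309 to 1057 CPM in the midline. Of 9 tested, 8 were called higher in the midline, against 18.9% of all genes. Markers low in mechanoreceptors may have passed the filter through the midline alone, so this count is a description. Megakaryocyte and platelet markers summed to 64.4 to 90.6 CPM and 22.1 to 46.8 CPM, of which Gp1bb alone was 57.7 to 85.5 CPM in mechanoreceptors.

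**Figure D3:**
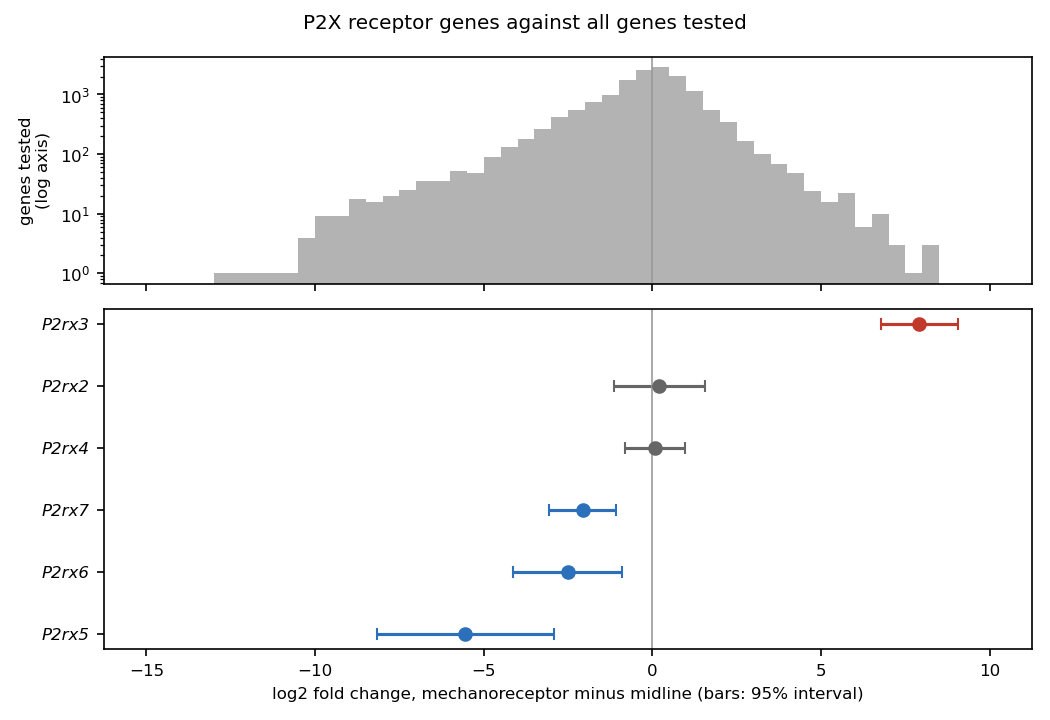
Log2 fold change, mechanoreceptor minus midline, of all 15314 genes tested (upper panel, number of genes on a log axis) and of the 6 P2X genes tested (lower panel, points with 95% intervals). P2rx3 (red, 7.91) lies in the far right tail, P2rx5, P2rx6 and P2rx7 (blue, -5.54 to -2.07) lie to the left, and the intervals of P2rx2 and P2rx4 (grey) cross 0.

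Each P2X gene that was higher in the midline was led by a different midline library. P2rx5 was highest in library 2, which held 60.4% of its CPM summed over the 3 midline libraries. P2rx6 was highest in library 5, with 68.6%, and P2rx7 in library 3, with 50.6%. Marker lists moved with the libraries as well. Library 2 held 90.0% of the skeletal muscle sum, 92.0% of the keratinocyte sum and 58.9% of the smooth muscle and pericyte sum. Library 3 held 68.6% of the sum of spinal dorsal horn neuron markers (172, 1133 and 347 CPM in libraries 2, 3 and 5), 57.3% of the pan-sensory neuron sum and 45.3% of the megakaryocyte and platelet sum. Library 5 held 53.9% of the roof plate sum (382, 1123 and 1762 CPM), 47.7% of the radial glia and astrocyte sum (2566, 5213 and 7102 CPM), 49.4% of the Schwann cell and satellite glia sum, 47.2% of the erythroid sum and 40.02% of the macrophage and microglia sum. No list is matched to a gene by this, since several peaked in each library. In the mechanoreceptor libraries the roof plate sum was 2.49 to 9.69 CPM and the radial glia and astrocyte sum 534 to 746 CPM. The part of these cells in P2rx5, P2rx6 and P2rx7 was not tested. Without library 2, P2rx5 was still called (adjusted p = 0.0225, edgeR's quasi-likelihood test). That call adds nothing to its counts, since P2rx5 passed the filter through the midline alone. Without library 3, P2rx7 was still called, while P2rx6 was not called without library 5.

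**Figure D4:**
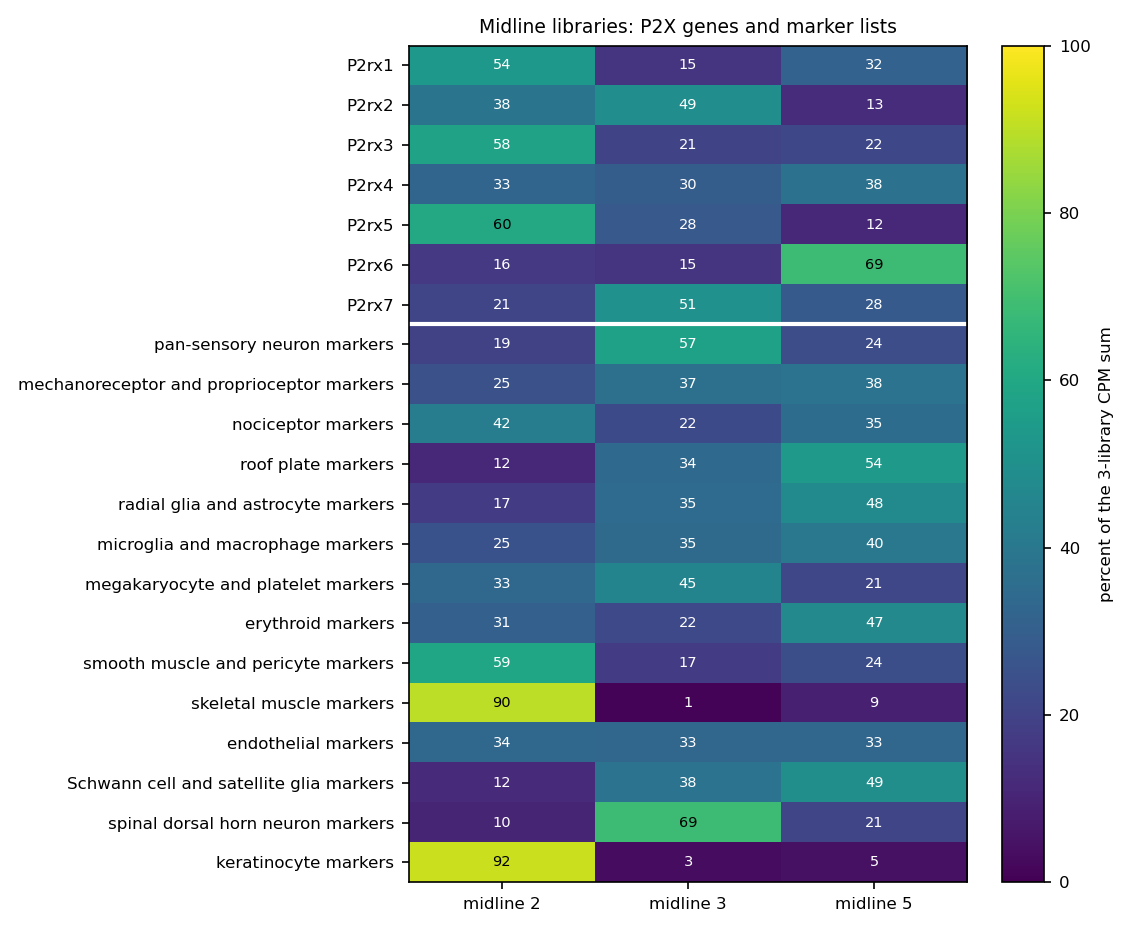
Share of the CPM summed over midline libraries 2, 3 and 5 that each library held, in percent, for each P2X gene (above the white line) and for the summed CPM of each marker list (below it). P2rx5 peaked in library 2, P2rx7 in library 3 and P2rx6 in library 5, and several marker lists peaked in each of these libraries.

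The genes most like each called P2X gene were taken by the smallest root mean square difference of log2 CPM, centred on each gene's mean, over the 6 libraries, among about 11046 genes at 10 CPM or more on average. For P2rx3 they were Scn7a (0.43), a sodium channel family gene, Isl2 (0.46), a homeobox gene of neurons, and Prph (0.66), the neurofilament-related peripherin. For P2rx7 they were Ypel1 (0.15) and Nbea (0.16), for P2rx6 Npr3 (0.22), Metrn (0.23) and Fam84b (0.30), and for P2rx5 Frem1 (0.31), Slfn9 (0.45) and Ccnb1 (0.45). These are descriptions over 6 libraries in 2 groups.

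Promoter sequence was at hand for 4 of the 7 P2X genes, namely P2rx1, P2rx4, P2rx6 and P2rx7, from RefSeq on GRCm38.p6. P2rx6 and P2rx7 are shown because they are the genes of these 4 that were called, both higher in the midline. Each run holds the 250 bases before an annotated start on the plus strand, at chr16:17561635-17561884 for P2rx6 and chr5:122643677-122643926 for the first of 2 promoters of P2rx7. Capitals mark matches on either strand to the GC box GGGCGG, the CCAAT box, the TATA box TATAAA and the E-box CANNTG.
P2rx6: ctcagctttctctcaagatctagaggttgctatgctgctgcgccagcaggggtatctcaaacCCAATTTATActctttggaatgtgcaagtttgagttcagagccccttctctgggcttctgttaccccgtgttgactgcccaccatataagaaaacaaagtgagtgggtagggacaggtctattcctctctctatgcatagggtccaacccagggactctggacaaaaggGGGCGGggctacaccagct
P2rx7: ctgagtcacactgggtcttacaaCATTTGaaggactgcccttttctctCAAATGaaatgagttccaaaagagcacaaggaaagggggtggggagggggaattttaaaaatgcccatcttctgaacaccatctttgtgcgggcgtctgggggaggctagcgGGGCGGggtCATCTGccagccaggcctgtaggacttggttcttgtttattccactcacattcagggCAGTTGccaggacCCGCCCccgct

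The P2rx6 run held 1 GC box from base 232, and a CCAAT box from base 63 whose last base is also the first of a TATA box match on the minus strand at base 67. It held no E-box. The P2rx7 run held 2 GC boxes, from bases 161 and 240, and 4 E-boxes, from bases 24, 49, 170 and 227, with no CCAAT or TATA box. Of 32851 promoter runs of the same length, 32.7% held a GC box, 33.8% a CCAAT box, 12.4% a TATA box and 66.2% an E-box. The GC box is thus the motif that both runs shown share, and it was in 32.7% of all runs. The second promoter of P2rx7, not shown, held 0 GC boxes and 2 E-boxes. These matches are descriptions of letters, not of binding.

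Other genes of purinergic signalling were read from 6 further lists with 42 genes in the table, of which 33 were tested. Mechanoreceptors were the higher group for 8 of these by the test, and the midline for 9, against 18.8% and 18.9% of all genes tested. Their median log2 fold change was -0.93, against -0.05 over all genes. A list of 6 acid-sensing and serotonin channels of sensory neurons was read beside them. Of the called genes, P2ry14, Adora2a, Panx3 and Accn4 passed the filter through the midline alone, as P2rx5 did. They had to differ, and their values are descriptions. P2ry14, Adora2a and Panx3 are among the 9 counted above for the midline, so 9 of 33 cannot be weighed against 18.9%. The median of -0.93 includes these genes too and cannot be weighed against -0.05. The same holds for the midline counts given below for the lists with P2ry14, Adora2a, Panx3 or Accn4. Slc29a1 and Alpl reached the filter's level in 3 midline libraries, but in only 1 and 2 mechanoreceptor libraries. Panx2 and Accn3 reached it in 3 mechanoreceptor and 2 midline libraries. For each of these genes the lower group alone would not have passed the filter. Adjusted p-values below are from edgeR's quasi-likelihood test.

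Pirt, a membrane protein of sensory neurons known in mouse to modulate P2X3 and other channels, was at 394, 357 and 361 CPM in the mechanoreceptor libraries and at 6.90, 2.45 and 3.16 CPM in the midline. Like P2rx3 it was high in all sorted libraries and did not overlap with the midline (log2 fold change 6.45, SE 0.40, adjusted p = 0.000155), and it was called in all 14 alternatives. Its log2 fold change was 7.05 without midline library 2.

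Among the P2Y receptors, which are G protein-coupled receptors for nucleotides, 6 of 8 were tested. Of these, 1 was called in each direction, against 18.8% and 18.9% of all genes. P2ry1, a receptor for ADP, was at 15.3 to 23.1 CPM in mechanoreceptors and 2.90 to 10.7 CPM in the midline (log2 fold change 1.45, adjusted p = 0.0436). P2ry14, a receptor for UDP-glucose, was higher in the midline (0.594 to 1.28 against 4.81 to 8.48 CPM, log2 fold change -2.60, adjusted p = 0.00876), having passed the filter through that group alone. P2ry12 and P2ry13, receptors of microglia and blood cells, were not called (adjusted p = 0.0594 and 0.212). The P2ry1 call held in 7 of 14 alternatives (adjusted p 0.0108 to 0.136) and was lost without mechanoreceptor library 2 (0.136), 8 (0.0885) or 9 (0.0746) and without midline library 3 (0.0583) or 5 (0.0956). P2ry12 was called without mechanoreceptor library 2 (0.0407) and without midline library 2 (0.0196), in 5 of 14 alternatives (adjusted p 0.0117 to 0.160). P2ry14 was called in 12 of 13, the exception being the deposited log2 values (0.0540).

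Of 4 adenosine receptors listed, 2 were tested and both called higher in the midline, against 18.9% of all genes. Adora2a had passed the filter through that group alone. Adora1, an inhibitory receptor, was at 4.28 to 5.19 CPM in mechanoreceptors and at 73.8, 19.2 and 14.8 CPM in midline libraries 2, 3 and 5 (log2 fold change -2.89, adjusted p = 0.00932), and -1.78 without midline library 2. Adora2a, a stimulatory receptor, was at 0 to 0.692 and 2.84 to 4.46 CPM (log2 fold change -3.58, adjusted p = 0.0207). The Adora2a call was lost without mechanoreceptor library 8 (0.0767) and without midline library 5 (0.0524), and its log2 fold change was -5.44 without mechanoreceptor library 2. Adora2a was called in 11 of 13 alternatives (adjusted p 0.00178 to 0.0767).

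The list of ecto-nucleotidases, most of which break down ATP and its products outside the cell, had 9 of 10 genes tested. Of these, 1 was called higher in the sorted cells and 3 in the midline, against 18.8% and 18.9% of all genes. Acpp, now Acp3, the prostatic acid phosphatase that makes adenosine from AMP in sensory neurons, was higher in mechanoreceptors (23.99 to 32.7 against 3.47 to 5.13 CPM, log2 fold change 2.73, adjusted p = 0.000978). Enpp2, autotaxin, was higher in the midline (8.43 to 23.5 against 107 to 316 CPM, log2 fold change -3.81, adjusted p = 0.00151). Acpp and Enpp2 were called in all 14 alternatives. Breakdown of ATP was not measured, and the Enpp2 call is not read as such. Entpd1, which breaks down ATP and ADP, and Alpl, an alkaline phosphatase, were higher in the midline with log2 fold changes of -0.93 (adjusted p = 0.0276) and -1.84 (0.0437). The Entpd1 call held in 7 of 14 alternatives (0.00333 to 0.0976) and was lost without mechanoreceptor library 2 (0.0976), 8 (0.0819) or 9 (0.0593) and without midline library 2 (0.0674) or 5 (0.0531). The Alpl call held in 5 of 13 (0.0124 to 0.257) and was lost without mechanoreceptor library 2 (0.118), 8 (0.135) or 9 (0.0735) and without midline library 2 (0.213, log2 fold change -1.13) or 3 (0.0535). Entpd2 and Enpp1 were not called (adjusted p = 0.163 and 0.0805), though Entpd2 was without midline library 2 (0.0157, in 1 of 14 alternatives, range 0.0157 to 0.473). Enpp1 was called with upper-quartile scaling (0.0434) and DESeq2 (0.0406), in 2 of 13 alternatives (0.0406 to 0.454).

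Of the genes of ATP release and its loading into vesicles, 8 of 10 were tested. Of these, 3 were called higher in the sorted cells and 2 in the midline, against 18.8% and 18.9% of all genes. Lrrc8a, a subunit of volume-regulated anion channels, was at 153 to 198 against 70.1 to 85.0 CPM (log2 fold change 1.16, adjusted p = 0.00302). The pannexins Panx1 (39.97 to 58.4 against 17.8 to 28.3 CPM, 1.08, adjusted p = 0.0146) and Panx2 (11.4 to 24.9 against 0.802 to 5.13 CPM, 2.52, 0.0162) were also higher in mechanoreceptors. Both lost their call without mechanoreceptor library 8 (0.0629 and 0.0630) and held it in 13 of 14 alternatives (from 0.00277 and from 0.000442). Panx3 had 0 counts in all mechanoreceptor libraries and 113 over the midline (adjusted p = 0.00254), at least 55.0-fold higher against 3 counts over the mechanoreceptor group. Gja1, connexin 43 of glia and other cells, was higher in the midline (log2 fold change -1.60, adjusted p = 0.0292). The Gja1 call was lost without mechanoreceptor library 8 (0.106) or 9 (0.102) and without midline library 2 (0.0686, log2 fold change -0.92), and held in 11 of 14 (0.00335 to 0.106). Gjb2 and Gjb6 were not called (adjusted p = 0.260 and 0.852).

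Adenosine uptake and metabolism had 7 of 9 genes tested. Of these, 2 were called higher in the sorted cells and 1 in the midline, against 18.8% and 18.9% of all genes. The transporters of the Slc29 family differed among themselves. Slc29a4 (115 to 156 against 11.4 to 37.7 CPM, log2 fold change 2.72, adjusted p = 0.00341, and 3.46 without midline library 3) and Slc29a3 (54.0 to 74.7 against 31.4 to 44.4 CPM, 0.81, 0.0240) were higher in mechanoreceptors. Slc29a1, the main equilibrative adenosine transporter of the cell surface, was higher in the midline (0.832 to 1.66 against 17.8 to 24.5 CPM, log2 fold change -4.10, adjusted p = 0.000566). The Slc29a3 call held in 9 of 14 alternatives (0.0128 to 0.0814) and was lost without mechanoreceptor library 2 (0.0813) or 8 (0.0814) and without midline library 5 (0.0634). Slc29a2 and Adk were not called (adjusted p = 0.929 and 0.912).

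Of the other fast cation channels of sensory neurons, all 6 were tested. Of these, 3 were called higher in the sorted cells and 1 in the midline, against 18.8% and 18.9% of all genes. The acid-sensing channels Accn3 (now Asic3, 78.0 to 89.3 against 1.12 to 2.25 CPM, log2 fold change 5.60, adjusted p = 9.81e-05) and Accn1 (now Asic2, 62.3 to 91.1 against 7.38 to 23.9 CPM, 2.01, 0.00868) were higher in mechanoreceptors. The serotonin receptor subunit Htr3b was also higher there (49.2 to 57.1 against 2.05 to 6.25 CPM, log2 fold change 3.89, adjusted p = 0.000719, and 4.48 without midline library 3). Accn4 (now Asic4) was higher in the midline (1.28 to 1.54 against 3.53 to 17.6 CPM, log2 fold change -2.66, adjusted p = 0.0160). The Accn4 call was lost without mechanoreceptor library 2 (0.0580), 8 (0.0546) or 9 (0.0591) and without midline library 3 (0.0596, log2 fold change -1.80), and held in 8 of 13 (0.000522 to 0.153). Accn2 (now Asic1) and Htr3a were not called (adjusted p = 0.947 and 0.0984). P2rx3 had the largest log2 fold change toward mechanoreceptors among the P2X genes and the 39 genes of all these lists tested here.

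**Figure D5:**
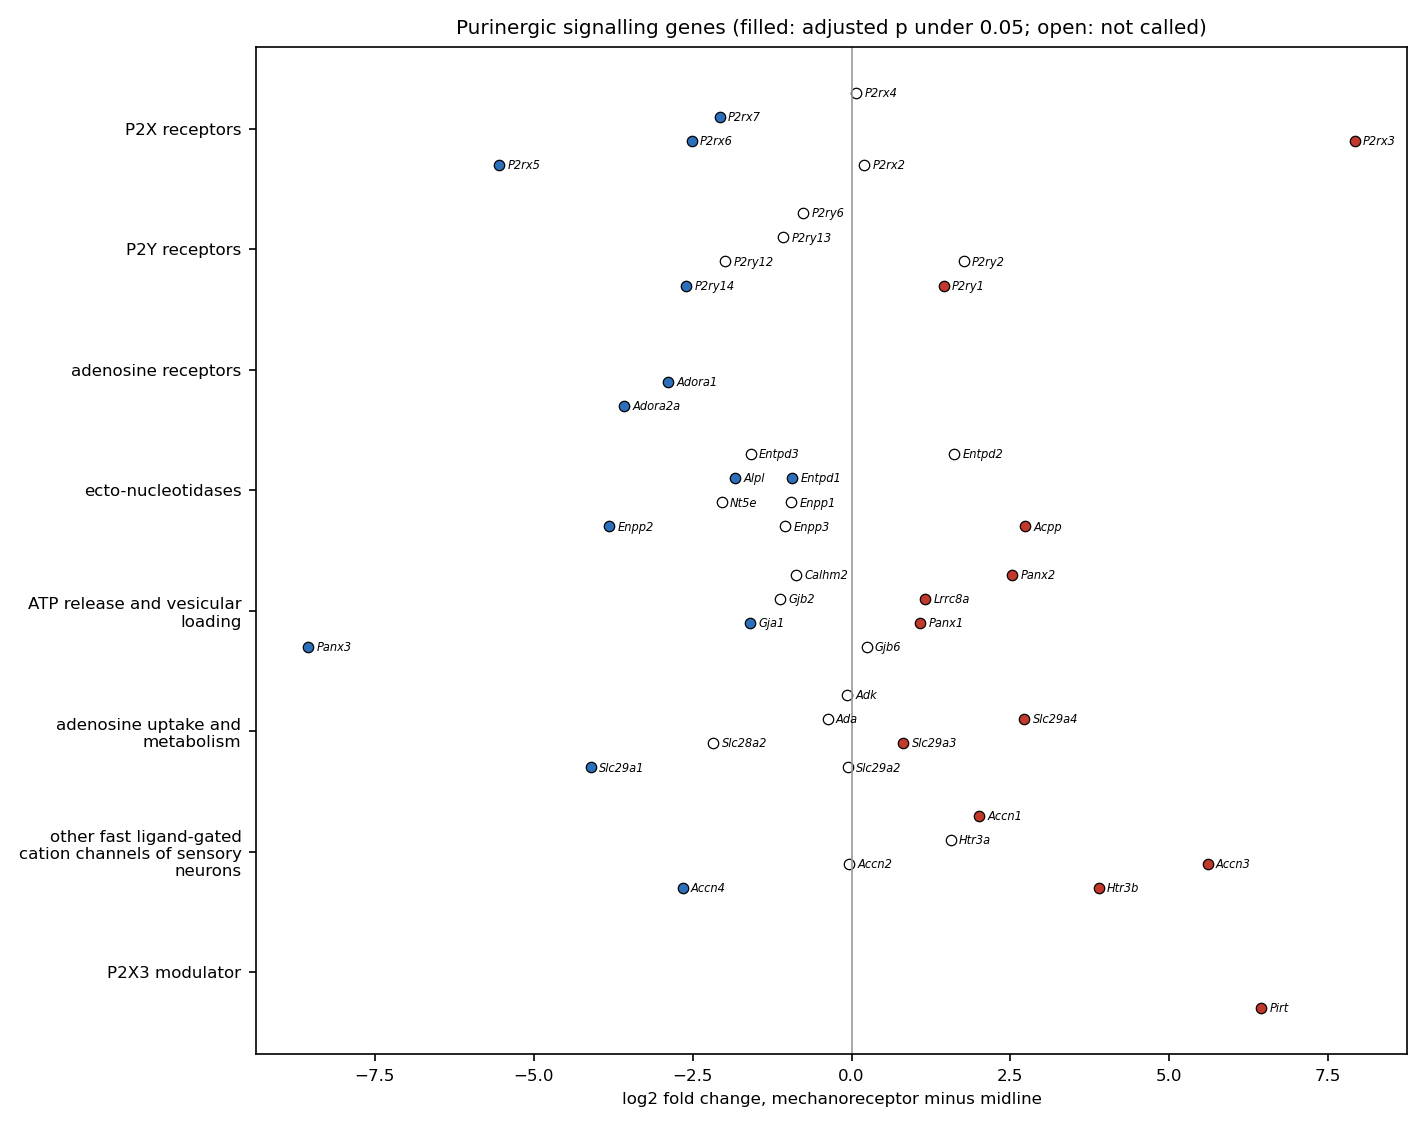
Log2 fold change, mechanoreceptor minus midline, of the P2X genes and of the other genes tested, in 1 band per list (filled points called at an adjusted p under 0.05, red higher in mechanoreceptors and blue higher in the midline, open points not called, height within a band without meaning). P2rx3 (7.91), Pirt (6.45) and Accn3 (5.60) lie farthest to the right, while the points of P2rx5 and of Panx3, which had 0 mechanoreceptor counts, are fitted values that depend on the prior count.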

How the data were processed

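RNA-seq of 6 libraries was used, 3 per group. The authors deposited whole-number read counts per RefSeq transcript, log2 expression values with equal maxima in all libraries, and their own log2 fold changes with false discovery rate p-values, per the file headers. The build mm9 and edgeR are named in the submitters' processing notes; aligner, counter and strand are not given in the sources used here. There were 28644 transcript rows for 22869 symbols, of which 3705 had several rows, and the row with the highest summed count was kept. Reads in shared exons can stand in several rows.

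Counts were tested with edgeR 4.0.16 in R 4.3.3: filterByExpr (minimum count 10, total 15) left 15314 genes, libraries were scaled by TMM, and the quasi-likelihood F test had 4 residual degrees of freedom, with Benjamini-Hochberg adjustment over all genes tested and a threshold of 0.05. The SE was taken as the size of the log2 fold change over the root of F, and CPM were TMM-scaled. Lengths are those of GENCODE M21 transcripts paired with the RefSeq accessions, found for 22233 kept rows, in place of RefSeq lengths; for P2rx6, whose 2 rows have equal counts, the longer one (2345 bases) was used. The test was checked on simulated data. Total counts and the floor of 3 counts are given with the results. Alternatives were upper-quartile scaling, DESeq2 1.42.0, limma-voom and limma 3.58.1 on the deposited log2 values, other filters, summed rows and each library left out.

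The members and the gene lists were chosen with earlier results of these data known. Named genes were all P2X genes, Ret and Pirt, the most abundant members of each list (at most 3 called in each direction and 2 others), and the 3 genes most like each called P2X gene. A few genes that this rule takes are not reported here. Promoter runs are credited to RefSeq on GRCm38.p6, and no other coordinates are given because that build is not mm9. The deposited gene name lists and pathway table were not used here.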

Additional observations from a re-analysis of the deposited data

How the results depend on the processing

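Of 389 values recomputed under alternatives, 319 kept their direction and call or stayed within their spread. No paired analysis was possible because the groups share only 1 replicate number. P2rx2 was -0.018 with upper-quartile scaling (log2 fold change 0.20 in the report), and P2rx4 was -0.13 with upper-quartile scaling, -0.014 with limma-voom and -0.076 with at least 50 counts in 3 libraries (0.077 in the report). On the deposited log2 values P2rx6 (-1.52) and P2rx7 (-1.41) were not called, which left 1 P2X gene higher in the midline instead of 3, as did the filter of 50 counts, which P2rx5 and P2rx6 did not pass. P2rx7 passed that filter through the midline alone. Upper-quartile scaling moved the median log2 fold change of all genes from -0.05 to -0.26, with 2149 genes called higher in mechanoreceptors and 3673 in the midline.

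With 1 library left out, log2 fold changes ran from 7.69 to 8.60 for P2rx3, -0.16 to 0.58 for P2rx2, -0.31 to 0.31 for P2rx4, -7.91 to -4.77 for P2rx5, -2.92 to -1.39 for P2rx6 and -2.29 to -1.64 for P2rx7. The number of P2X genes higher in the midline ran from 2 to 3, and that of all genes from 1893 to 3100 in mechanoreceptors (2886 with all) and from 1862 to 3082 in the midline (2902 with all). The numbers of calls ran from 0 to 1 (mechanoreceptors) and 1 to 2 (midline) for P2Y receptors, 1 to 3 (midline) for adenosine receptors, 1 to 2 and 1 to 2 for ecto-nucleotidases, 1 to 3 and 1 to 2 for ATP release, 1 to 2 and 1 to 2 for adenosine uptake and 0 to 1 (midline) for the other channels.

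Among the lists, P2Y receptors higher in mechanoreceptors numbered 0 with upper-quartile scaling and with 50 counts and 2 on the deposited log2 values. P2Y receptors higher in the midline numbered 2 with upper-quartile scaling and DESeq2 and 0 on the deposited log2 values. With 50 counts, adenosine receptors and ATP release each had 1 higher in the midline and the other channels 0, which was also 0 on the deposited log2 values. Ecto-nucleotidases higher in the midline numbered 1 with no filter and on the deposited log2 values, and adenosine uptake had 2 in the midline with no filter and 1 in mechanoreceptors with upper-quartile scaling and on the deposited log2 values.

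With transcript rows summed, the mean share of P2X signal was 1.06% (mechanoreceptor) and 16.1% (midline) for P2rx2, 97.2% (mechanoreceptor) for P2rx3, 12.9% (midline) for P2rx4, 0.412% (mechanoreceptor) for P2rx6 and 0.369% (mechanoreceptor) for P2rx7. With plain counts it was 97.6% for P2rx3, 1.27% for P2rx4 and 0.380% for P2rx7 in mechanoreceptors, and 28.1% for P2rx7 in the midline. The shorter length for P2rx6, an alternative chosen after seeing the data, gave 17.9% for P2rx4 in the midline and 0.361% for P2rx6 in mechanoreceptors. The cause of these changes was not tested, except that the stricter filter tests fewer genes. Depth limits P2rx1 and P2rx5, whose mechanoreceptor counts are mostly under 3.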
